A study of Mus musculus with 14 samples.

Results

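Potassium channels are membrane proteins that let potassium leave or enter the cell, and they set the resting potential, end the action potential and, in glia, take up the potassium that active axons release. In mice most of their genes carry symbols that begin with Kcn. The genes described here are those whose symbol is Kcn, letters and a number, and they were chosen by their measured counts: a gene entered when it had at least 20 UMIs summed over all cell barcodes of 8 Drop-seq pools of the nucleus accumbens. UMIs are the molecular barcodes that let each captured transcript be counted once. Of 91 matching symbols with any UMI, 82 entered, out of 30963 symbols detected in these pools. They held 348966 UMIs, or 0.304% of all. The genes just inside the limit were Kcnk9 with 22 UMIs and Kcnq1 with 23, and the highest of the 9 below it was Kcnk15 with 8. Because the totals over these pools chose the genes, the totals are given as a description only.

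The mice were male C57BL/6 animals given morphine sulfate or, as mock treatment, saline, by injection into the peritoneum. Dose and collection time are not given in the sources used here. The nucleus accumbens, a part of the ventral striatum that takes part in reward, was measured in 4 mock and 4 morphine pools of 2 mice each. In both groups replicates 1 and 2 were 37 to 45 days old and replicates 3 and 4 were 78 to 82 days old. Oligodendrocytes, the cells that make myelin, were also sorted from the whole brains of mice of 70 days, as 3 mock and 3 morphine libraries, and their RNA was amplified before sequencing. No deletion or transgene is named for any group.

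The pools held 3000 or 6000 barcodes and 6910203 to 24668659 UMIs, and the sorted libraries 14989118 to 23456702 reads in genes. Of 36000 barcodes, 47 occurred in more than 1 pool, with at most 9 shared by any pair. Cell types were taken by marker gates: a barcode entered a gate when it held at least 3 markers of 1 cell type and scored at most 0.5 times as high for any other. The dividing progenitor and perivascular macrophage gates took barcodes with at least 3 of their markers without this limit on other types. Only barcodes gated as medium spiny neurons were kept out of the macrophage gate. Of 33216 barcodes that passed the filter on genes and mitochondrial RNA, 20832 (62.7%) fell into 1 of 14 gates, and none of the 82 genes was a gate marker. The replicate 1 pools of both groups were counted against another gene list and stood apart for 2 of the 82 genes. Kcna2 was at 44.1 and 65.2 CPM (counts scaled to a common library total) there and at 3.61 to 8.29 CPM in the other 6 pools, and Kcnn3 was at 12.8 and 15.6 CPM against 1.79 to 3.77 CPM. These 2 genes enter the counts of the age comparison below, and their own age values are not described. The labels do not say whether the sorted libraries came from separate animals, so their p-values measure only the spread between these samples.

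The families differ in structure and in what opens them. Voltage-gated channels (Kcna, Kcnb, Kcnc, Kcnd, Kcnq, Kcnh) open on depolarisation, and the silent subunits (Kcnf, Kcng, Kcns, Kcnv) form no channel alone but modify the Kcnb channels they join. Calcium- or sodium-activated channels (Kcnma, Kcnn, Kcnt) follow the ions that enter during spikes. Kcnu1 is counted with this group by its symbol, not by what opens it. Inward rectifiers (Kcnj) pass current near rest, and among them Kcnj3, Kcnj5, Kcnj6 and Kcnj9 form channels opened by G proteins, to which opioid receptors couple. The 2-pore channels (Kcnk) are leak channels, and the auxiliary genes (Kcnab, Kcnip, Kcnmb, Kcne) code for partners that change gating or traffic. The 82 genes comprised 15 voltage-gated genes of the Kcna to Kcnd groups, 9 silent subunits, 5 Kcnq, 8 Kcnh, 8 calcium- or sodium-activated, 13 inward rectifier, 11 2-pore and 13 auxiliary genes.

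A few genes made up much of the signal (written with their UMI totals over the 8 pools). Kcna1, a delayed rectifier of axons, had 32074 UMIs, or 9.19% of the UMIs of all 82 genes, and Kcnab1, a beta subunit of Kcna channels, had 27051. Kcnd2, which carries the transient A-type current of dendrites, had 24757 and Kcnq3, a subunit of the M-current, had 20879. Kcnk2, a leak channel sensitive to stretch and lipids, had 18527 and Kcnip2, an auxiliary subunit of Kcnd channels, had 17993. Kcnk1, another leak channel, had 16978, Kcnma1, the large-conductance calcium-activated channel, 12765, and Kcnc1 12452. The 10 genes with the most UMIs, these among them, held 56.2% of the UMIs, while 11 of the 82 genes had under 100 UMIs. Summed over the 82 genes, the level was 2474 to 3325 CPM across the 8 pools.

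By median summed level, neurons held the most potassium channel RNA. The median over pools was 4295 CPM in the excitatory neuron gate, 3749 CPM in the gate of medium spiny neurons with D1 dopamine receptors, 3717 CPM in the D2 gate and 3209 CPM in the interneuron gate. The first 3 of these had overlapping ranges over pools (3534 to 5285, 3462 to 4343 and 3451 to 4475 CPM). The interneuron range (2478 to 4006 CPM) overlapped those of oligodendrocyte precursors (1749 to 2511 CPM) and dividing progenitors (748 to 2525 CPM). Among non-neuronal gates the medians ran from 2338 CPM in oligodendrocyte precursors and 2234 CPM in astrocytes down to 565 CPM in endothelial cells, where the highest pool, 732 CPM, lay below the lowest pool of each of these 2 glial gates. The families were spread unevenly. Voltage-gated genes were at 1301 CPM in interneurons and at 798 CPM in oligodendrocytes, against 215 CPM in astrocytes, while 2-pore genes were at 991 CPM in astrocytes and 89.1 CPM in oligodendrocytes. Inward rectifiers were at 557 CPM in oligodendrocyte precursors and 544 CPM in mural cells, the contractile cells of vessel walls, and those ranges overlapped (379 to 627 and 205 to 870 CPM). These values are descriptions of gates, with no test.

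**Figure D1:**
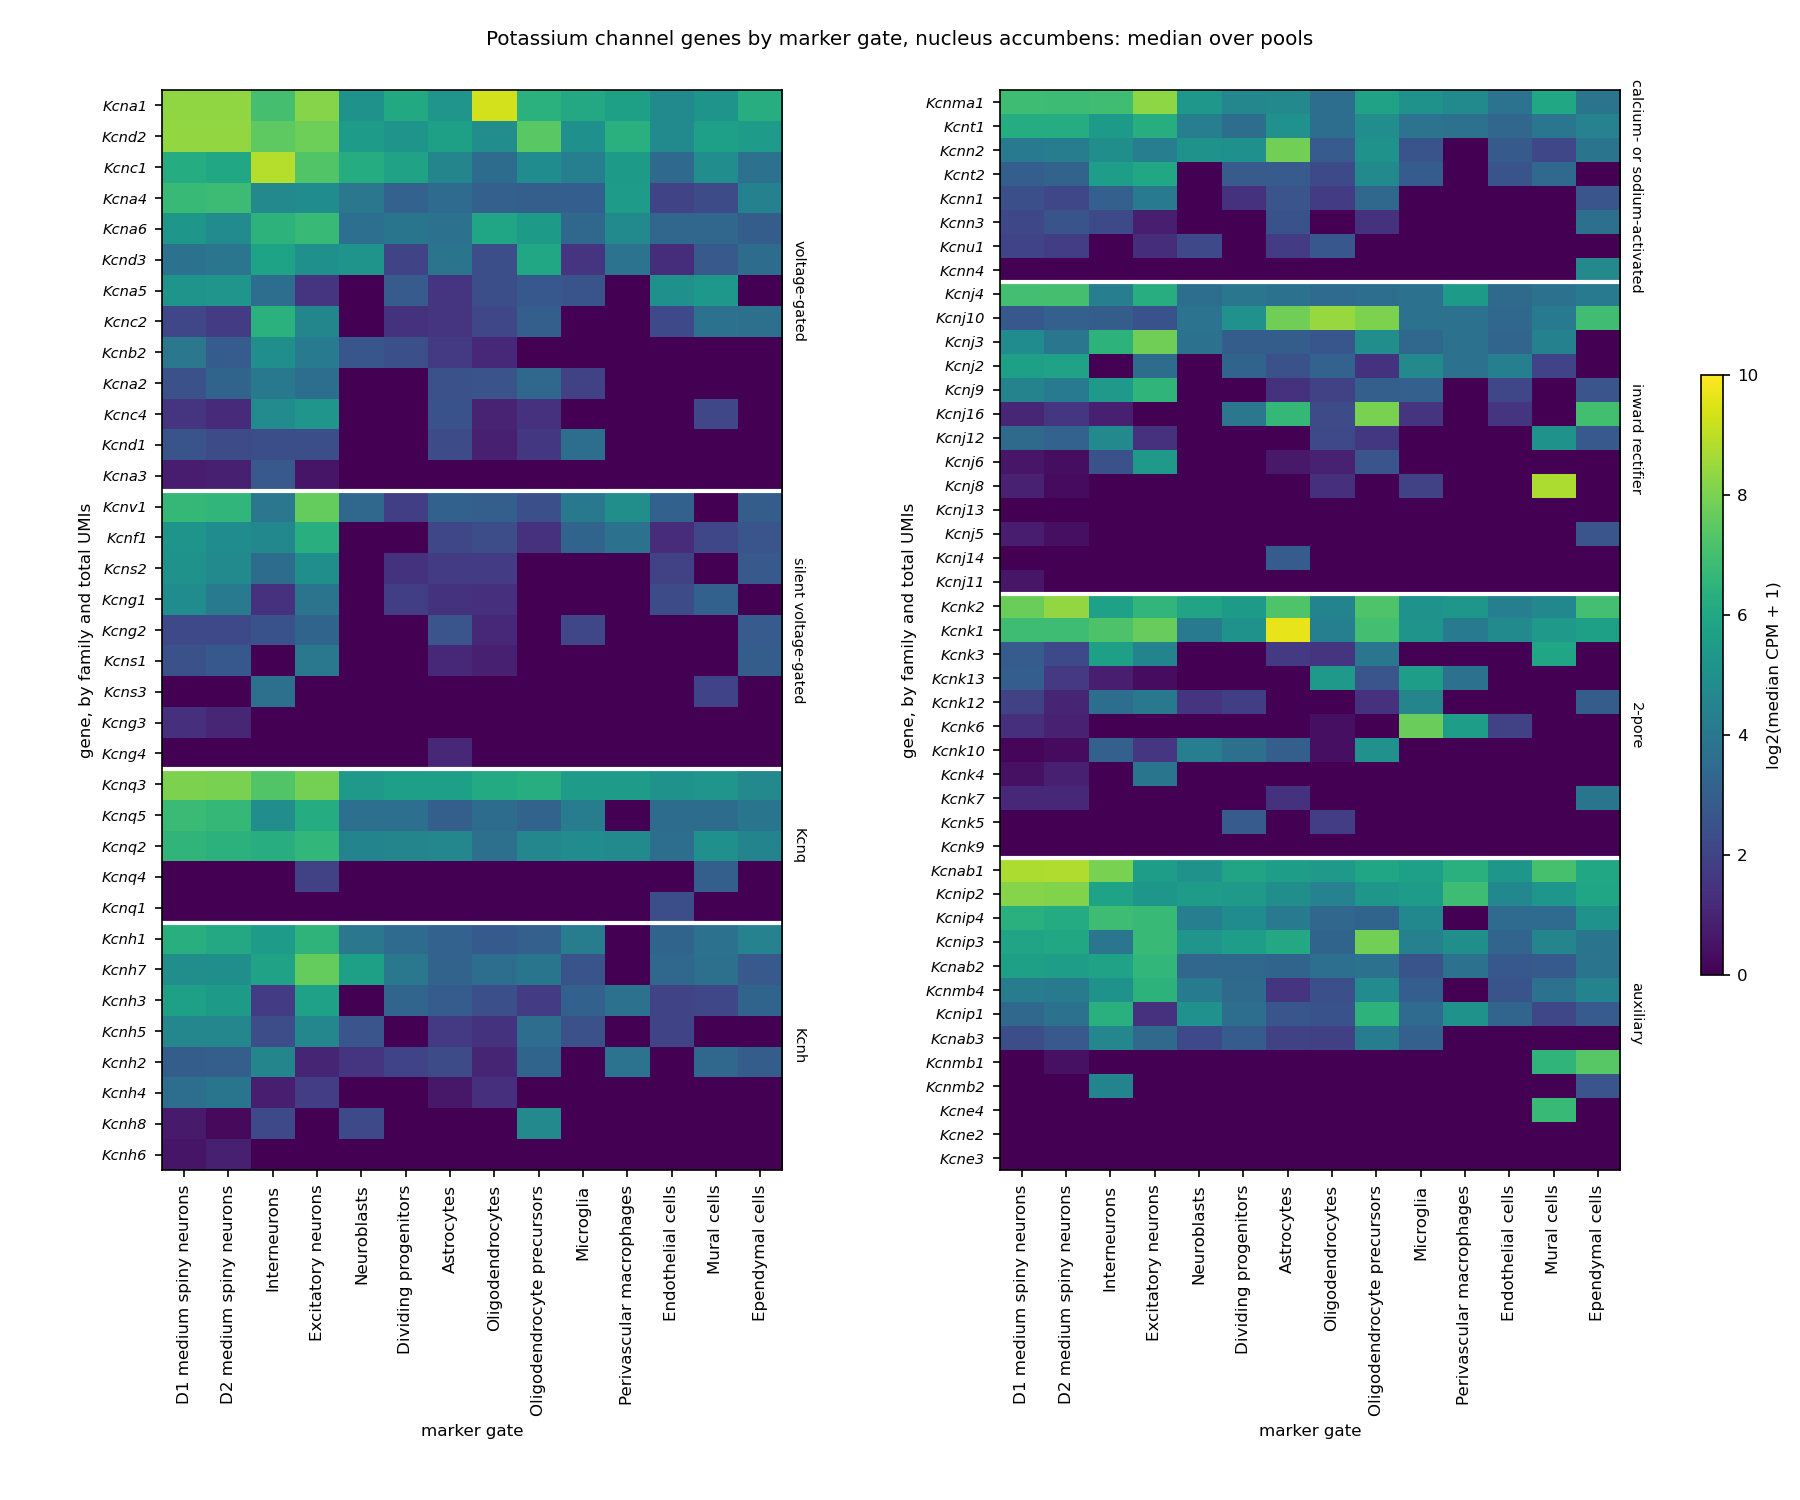
Median level of the channel genes described here over the pools in each of 14 marker gates, as log2(median CPM + 1), with genes in rows by family and gates in columns. Kcna1 is brightest in oligodendrocytes (640 CPM), Kcnk1 in astrocytes (819 CPM), Kcnj8 in mural cells (434 CPM) and Kcnc1 in interneurons (466 CPM).

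Taking for each gene the gate with its highest median, 22 genes peaked in excitatory neurons, 11 in interneurons, 8 in the D1 gate and 7 in the D2 gate. The next gates were lower in number: 6 peaked in oligodendrocyte precursors, 6 in mural cells, 5 in ependymal cells, 4 in astrocytes, 4 in microglia, 3 in oligodendrocytes and 1 each in endothelial cells and dividing progenitors. Kcnj13, Kcne2, Kcne3 and Kcnk9 had a median of 0 in every gate. For 34 genes the peak was at least 2 times the next gate. The excitatory gate, which was filled unevenly by 1 to 208 barcodes a pool, gave values in only 6 pools.

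In neurons the gates differed by channel. Kcnc1 and Kcnc2, subunits of the fast delayed rectifiers of fast-spiking cells, were at medians of 466 and 83.0 CPM in interneurons. For Kcnc1 the interneuron pools held 247, 426, 699 and 861 CPM (mock) and 441, 422, 491 and 717 CPM (morphine). Every one lay above the excitatory value of its own pool in the 6 pools with both, where the median was 155 CPM. Kcnma1 peaked in excitatory neurons at 312 CPM (272 to 352 CPM, 6 pools), 2.55 times the interneuron median. Kcnh7, a slowly deactivating member of the Kcnh group, was at 199 CPM in excitatory neurons and 53.0 CPM in interneurons. Of the G protein-gated rectifiers, Kcnj3 was at 225 CPM in the excitatory, 86.6 CPM in the interneuron, 28.1 CPM in the D1 and 14.0 CPM in the D2 gate. Kcnj9 followed the same order with 93.1, 41.6, 21.2 and 16.0 CPM. Kcnj6 was at 41.7 CPM in excitatory neurons and held only 13 UMIs in the whole D1 gate and 12 in the D2 gate, and Kcnj5 held 16 and 5 UMIs there.

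Among the glia and vessel gates, a lead of at least 2 times over the next gate was held by 4 genes in astrocytes, 3 in oligodendrocyte precursors, 3 in mural cells, 2 in microglia and 1 in endothelial cells, and by 0 in oligodendrocytes. In astrocytes Kcnk1 was at 709, 832, 880 and 894 CPM in the mock pools and 778, 805, 945 and 732 CPM in morphine pools, and all lay above every excitatory pool (highest 236 CPM). Kcnn2, a small-conductance calcium-activated channel, was at 230 CPM in astrocytes and 34.1 CPM in neuroblasts, its next gate. In microglia Kcnk6 was at 207 CPM, with 65.9 CPM in mock replicate 1 and 157 to 265 CPM in the other 7 pools. Kcnk13, a leak channel of the halothane-inhibited group, was at 47.0 CPM in microglia and 41.7 CPM in oligodendrocytes, with microglia above in 3 of 8 pools, so the order of these gates was not settled. In mural cells Kcnj8, the pore of an ATP-sensitive channel, was at 434 CPM and its next gate, microglia, at 2.80 CPM. Kcne4, an auxiliary subunit, was at 109 CPM in mural cells. Kcnn4 held 31 UMIs in the ependymal gate, and its median in every other gate was 0. The ependymal gate gave values in 7 pools, and each of these had Kcnn4 (20.4 to 50.6 CPM). The ependymal gate was highest for Kcnmb1 too, at 169 CPM, with mural cells next at 92.6 CPM.

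Neuronal channels also gave a low level in gates of other cells: Kcnd2 was at 335 CPM in the D1 gate and at 25.9 CPM in endothelial cells. The part that RNA free in the droplets had in such low levels was not tested.

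**Figure D2:**
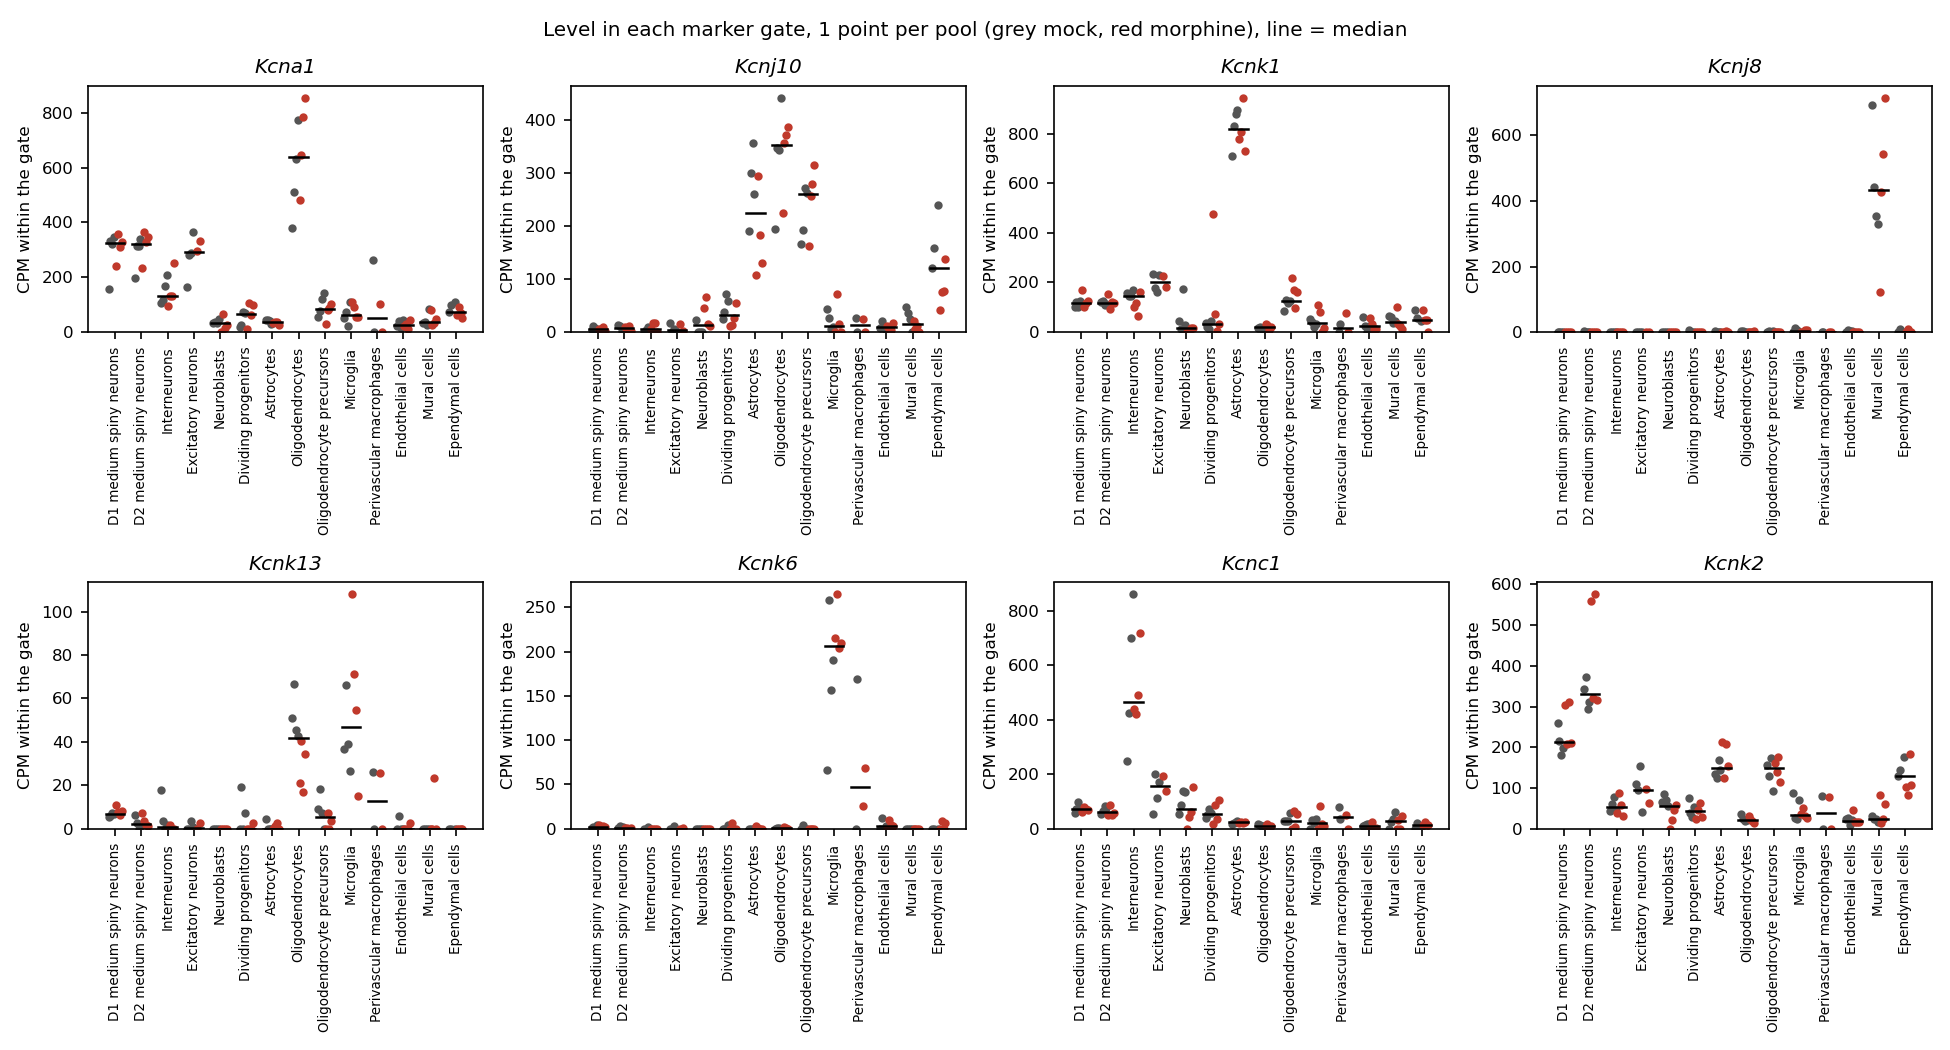
CPM of 8 genes in each of 14 marker gates, with 1 point per pool (grey mock, red morphine) and a line at the median. The mural pools of Kcnj8 (123 to 715 CPM) and the astrocyte pools of Kcnk1 (709 to 945 CPM) stand above all other gates. For Kcnk6 the lowest microglia pool (65.9 CPM) lies below the highest perivascular macrophage pool (169 CPM), and Kcnk13 is shared by microglia and oligodendrocytes.

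Differences between gates were tested on the UMIs summed per pool and gate, with the pool as a block (edgeR's quasi-likelihood test, Benjamini-Hochberg adjustment over all genes tested, threshold 0.05). The D1 and D2 gates, the output neurons of the direct and indirect pathway, differed in 10 of 43 tested channel genes, with 6 higher in D1 and 4 higher in D2. Of all 9989 genes tested, 4.41% were higher in D1 and 5.01% higher in D2. Kcnk2 led the D2 side. It was at 342, 373, 295 and 312 CPM in the D2 gate of the mock pools and 560, 320, 576 and 316 CPM of the morphine pools, against 259, 215, 180 and 199 CPM and 303, 208, 310 and 211 CPM in D1. D2 was above D1 in all 8 pools, although the ranges of the 2 gates overlap between pools, and the D1 to D2 difference was -0.74 ± 0.04 (log2 fold change ± SE, adjusted p = 2.36e-21).

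On the D1 side, Kcnj3 was 1.83 times higher in D1 (log2 fold change 0.87 ± 0.13, adjusted p = 5.06e-07), with D1 above D2 in every pool. Kcng1, a silent subunit, differed by 0.77 ± 0.12 (adjusted p = 3.15e-06) and had medians of 28.1 CPM in D1 and 16.2 CPM in D2. Kcnb2, a slow delayed rectifier, differed by 1.06 ± 0.18 (adjusted p = 1.65e-05), although 1 pool, mock replicate 3, went the other way with 4.36 CPM in D1 and 10.4 CPM in D2. Kcna6, a delayed rectifier of the Kcna group, differed by 0.58 ± 0.10. Smaller differences were called for Kcnf1 (0.36) and Kcnh1 (0.21) toward D1, and for Kcnip1 (-0.54), Kcna4 (-0.24) and Kcnab1 (-0.12) toward D2. Kcnk2, Kcnj3, Kcng1 and Kcnb2 were called under every alternative run. The other 6 were lost under at least 1, and leaving out morphine replicate 2 lowered the count from 10 to 6. The median over the 43 genes was 0.01 on the log2 scale, beside a median of -0.01 over all genes. In the list of partner genes (other ion pumps, carriers and channel subunits), 3 of 18 were higher in D1 and 2 in D2. Among them Fxyd7, a regulator of the sodium pump, differed by 2.20 ± 0.09, and Dpp10, an auxiliary subunit of Kcnd channels, by -0.32 ± 0.07.

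**Figure D3:**
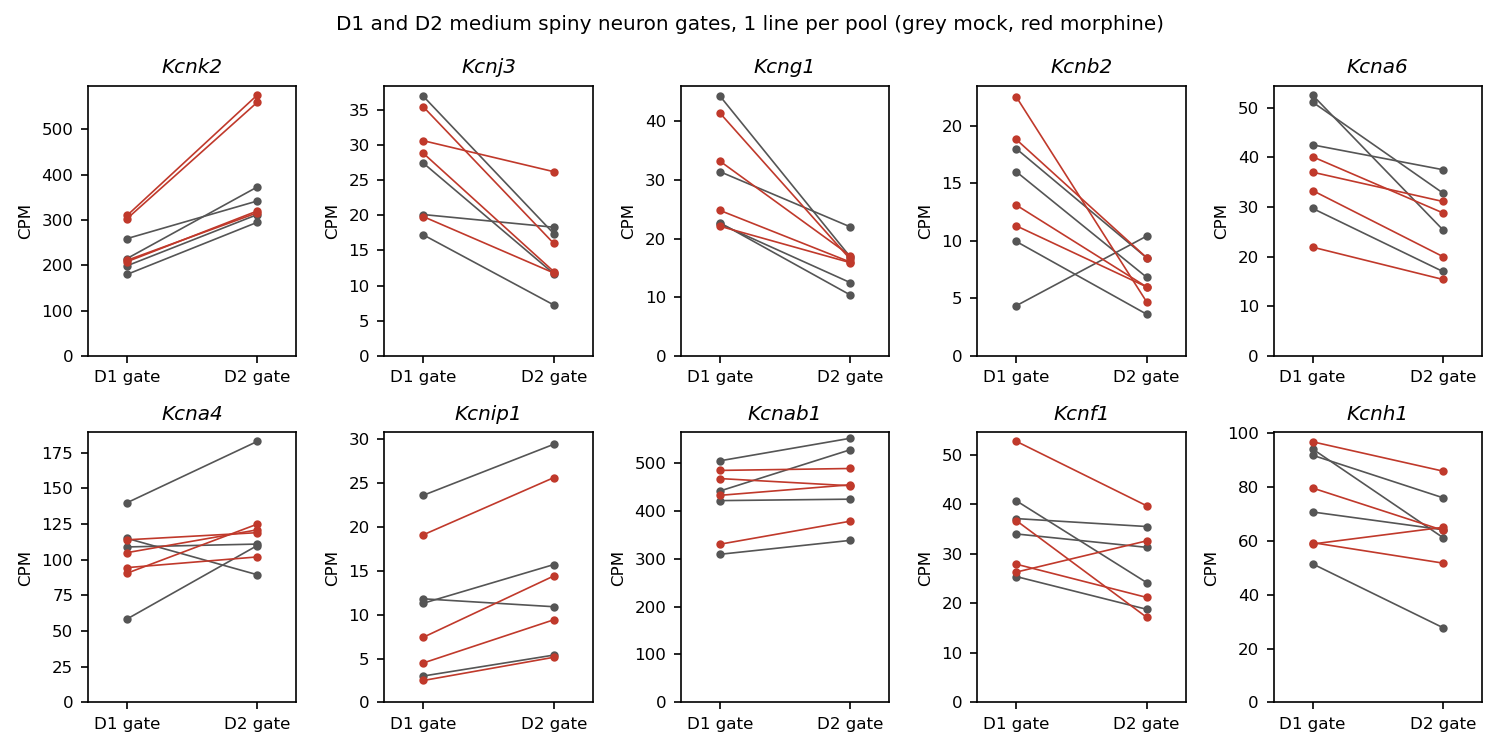
CPM of the 10 channel genes called between the D1 and D2 medium spiny neuron gates, with 1 line per pool (grey mock, red morphine). Every Kcnk2 line rises from D1 to D2 and every Kcnj3, Kcng1 and Kcna6 line falls, while 1 line of Kcnb2 crosses the others.

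Medium spiny neurons and interneurons differed far more widely. With both spiny gates summed, 21 of 46 channel genes were higher in spiny neurons and 20 higher in interneurons, where 25.0% and 25.4% of all 9743 genes tested were. The strong inward rectifiers Kcnj2 and Kcnj4, which hold spiny neurons near a hyperpolarised rest, were higher in spiny neurons by 5.22 ± 0.39 and 2.69 ± 0.17 on the log2 scale. Kcnj2 had 4 UMIs in the interneuron gate against 1115 in D1 and 731 in D2. It could therefore pass the filter on low counts by its spiny counts only, and its direction is not independent of the filter. Kcnip2 (5.27-fold), and, on the log2 scale, Kcnk2 (2.22 ± 0.15), Kcnq5 (2.02 ± 0.15), Kcnd2 (0.95 ± 0.11) and Kcnab1 (0.96 ± 0.10) were also higher in spiny neurons. So were Kcnv1, a silent subunit (2.75 ± 0.18), Kcnh3 (3.55 ± 0.34) and Kcna4, an A-type channel (1.65 ± 0.16).

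On the interneuron side, Kcnc genes stood out: Kcnc2 differed by -4.91 ± 0.26, Kcnc4 by -3.74 ± 0.31 and Kcnc1 by -2.92 ± 0.12. Kcnk3, an acid-sensitive leak channel, differed by -2.89 ± 0.27, Kcnab3 by -2.77 ± 0.32 and Kcnip1 by -2.75 ± 0.25. Kcnt2, a sodium-activated channel, was at -2.25 ± 0.25, Kcnd3 at -2.09 ± 0.18, Kcnj3 at -1.99 ± 0.16 and Kcna6 at -1.39 ± 0.16. All 20 genes named by rule here kept their call under every alternative run. Within the Kcnd and Kcnip groups, paralogs thus lay on opposite sides: Kcnd2 and Kcnip2 toward spiny neurons, Kcnd3 and Kcnip1 toward interneurons. The partner list had 1 of 17 genes higher in spiny neurons and 10 higher in interneurons, among them Hcn2 (-1.57 ± 0.20), which carries the current activated by hyperpolarisation.

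In the oligodendrocyte lineage, mature cells were compared with precursors. Of 15 channel genes tested, 4 were higher in oligodendrocytes and 9 higher in precursors, beside 31.1% and 28.4% of all 6103 genes. Kcna1 was 9.88 times higher in oligodendrocytes (3.31 ± 0.13 on the log2 scale, adjusted p = 1.23e-29), where its pools held 381 to 855 CPM against 29.4 to 142 CPM in precursors. Kcnj10, the rectifier by which glia buffer potassium, was also higher in oligodendrocytes (0.97 ± 0.11), as were Kcna6 (1.07 ± 0.21) and Kcnq3 (0.44 ± 0.18). The last 2 lost their call under 1 and 6 alternatives. Higher in precursors were Kcnj16, which joins Kcnj10 in mixed channels (-5.33 ± 0.24), Kcnip3 (-4.35 ± 0.20), Kcnip1 (-3.73 ± 0.26) and Kcnk1 (-2.45 ± 0.19). Kcnd2 (-2.28 ± 0.16), Kcnk2 (-2.19 ± 0.18) and Kcnma1 (-1.66 ± 0.25) were on that side too. The partner list had 5 of 13 genes higher in oligodendrocytes, led by Pex5l, which controls the traffic of Hcn channels (4.75 ± 0.15), and Slc12a2, a carrier of sodium, potassium and chloride (3.60 ± 0.14), and 6 higher in precursors.

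Astrocytes and oligodendrocytes, the main glial classes, differed in 15 of 18 channel genes, 10 higher in astrocytes and 5 in oligodendrocytes, beside 32.0% and 31.5% of all 8469 genes. On the astrocyte side stood Kcnk1 (5.39 ± 0.14), Kcnn2 (4.59 ± 0.16), Kcnj16 (4.54 ± 0.23), Kcnk2 (2.73 ± 0.14), Kcnip3 (2.58 ± 0.23) and Kcnt1 (1.60 ± 0.21). On the oligodendrocyte side stood Kcnk13 (-5.48 ± 0.38), with 349 UMIs there and 4 in astrocytes, Kcna1 (-4.22 ± 0.14) and Kcna6 (-2.07 ± 0.18). With 4 UMIs in astrocytes, Kcnk13 could pass the filter on low counts by its oligodendrocyte counts only. The direction of Kcnk13 is therefore not independent of the filter. Kcnj10 was 1.58 times higher in oligodendrocytes than in astrocytes (adjusted p = 2.14e-05), with medians of 353 and 226 CPM. The astrocyte pools ranged from 107 to 357 CPM and the oligodendrocyte pools from 194 to 443 CPM, so the ranges overlap and the call rests on the comparison within pools.

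Between mural and endothelial cells only 2 channel genes passed the filter on low counts, and both were higher in mural cells, beside 26.4% of all 2860 genes higher and 27.0% lower. These 2 genes are too few to describe a direction of the channel genes as a set. Kcnj8 held 366 UMIs in the mural gate, with 692, 442, 353 and 330 CPM in the mock pools and 123, 426, 543 and 715 CPM in morphine pools, and 4 UMIs in the endothelial gate, where 5 of 8 pools were at 0. The fitted difference was 7.50 ± 0.30 (adjusted p = 1.18e-18). With 4 UMIs in the endothelial gate, Kcnj8 could pass the filter by its mural counts only. Its direction is therefore not independent of the filter. Abcc9, the regulatory subunit that pairs with Kcnj8 and a member of the partner list, differed by 7.17 ± 0.37. Kcnab1 was at a median of 136 CPM in mural and 38.0 CPM in endothelial cells (1.96 ± 0.24). Under the tighter gate no channel gene passed the filter, so this comparison has no value there.

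Morphine was compared with mock first in the sorted oligodendrocytes. By level per kilobase of exon in the mock libraries, Kcna1 was first of the channel genes with 211 CPM per kb, Kcnj10 second with 124, then Kcna6 with 40.0 and Kcnk13 with 8.54. Of the 82 genes, 62 passed the filter on low counts and 13 were called: 8 rose and 5 fell. Over all 15751 genes tested, 14.8% were called, 8.09% as higher and 6.68% as lower, beside 21.0% of the tested channel genes. The median change was -0.19 over the tested channel genes and -0.02 over all genes on the log2 scale. In bulk samples, fewer cells of a type and less RNA per cell cannot be told apart. The 2 groups of 3 libraries did not overlap for 23 of the 62 tested channel genes, the 13 called ones among them, beside 29.1% of all genes tested. The sums of 11 oligodendrocyte markers were 62398 to 65146 CPM without and 65377 to 66357 CPM with morphine, with 1 marker up and 4 down. Those of 10 endothelial markers were 258 to 288 and 290 to 352 CPM, with 1 up and 4 down, and no marker of either list was at 0. Their part in the changes below was not tested.

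Among the genes that rose were Kcna1, Kcna2, Kcnab1, Kcnt1, Kcnh5, Kcnk1 and Kcnj10. Kcna1 (chr6:126640397-126646384, minus strand, GRCm38) was at 994, 1025 and 1014 CPM in the mock and 1612, 1695 and 1645 CPM in the morphine libraries. The lowest morphine library was far above the highest mock one, and the change was 1.66-fold (log2 fold change 0.73 ± 0.05, adjusted p = 1.24e-10). Kcna2, which joins Kcna1 in axonal channels, was at 40.5, 45.3 and 42.9 CPM against 70.5, 76.0 and 74.1 CPM, a 1.75-fold rise (0.81 ± 0.07, adjusted p = 9.33e-09). Kcnab1, the beta subunit of the same channels, was at 9.18, 9.61 and 9.09 CPM against 16.8, 15.8 and 15.1 CPM (0.80 ± 0.11, adjusted p = 1.03e-05). Of other Kcna and Kcnab genes, Kcna6 fell, and Kcnab2 (0.24 ± 0.14, adjusted p = 0.326) and Kcna4 (0.29 ± 0.29, adjusted p = 0.613) were not called.

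Kcnt1 and Kcnh5, which peaked in neurons in the accumbens, rose from low levels. Kcnt1, a sodium-activated channel, was at 2.88, 4.34 and 3.46 CPM in the mock and 9.54 to 12.2 CPM in the 3 morphine libraries (1.62 ± 0.16, adjusted p = 1.58e-07). Kcnh5 was at 1.48, 1.40 and 0.866 against 5.22, 4.26 and 4.18 CPM (1.88 ± 0.25, adjusted p = 8.53e-06). Beside these, the summed level of 11 medium spiny neuron markers ran from 177 to 186 CPM without and from 207 to 212 CPM with morphine, with 2 of 10 tested markers up (Adcy5 and Rasgrp2) and none at 0. That of 16 interneuron markers was 31.7 to 39.4 and 34.9 to 38.3 CPM, with 1 of 5 tested up. The sums of 7 excitatory neuron markers were lower with morphine (8.25 to 8.40 CPM) than without (9.41 to 14.3 CPM), with 0 of 6 tested called. The part of neuronal RNA in these changes was not tested.

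Kcnk1, the astrocyte-high leak channel, was at 4.36, 3.67 and 3.52 CPM in the mock and 5.96, 5.79 and 6.18 CPM in morphine libraries (0.65 ± 0.16, adjusted p = 0.00767). The 11 astrocyte markers summed to 646 to 767 and 665 to 727 CPM, with 4 up and 1 down, and none was at 0; their part in the Kcnk1 change was not tested. Kcnj10 was at 692, 632 and 685 CPM against 723, 768 and 735 CPM, a 1.13-fold rise (0.17 ± 0.05, adjusted p = 0.0260) that was lost when any of 4 of the 6 libraries was left out. Those were 1 mock and all 3 morphine libraries, and over all alternatives the adjusted p was 0.0216 to 0.168.

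The genes that fell were Kcnk13, Kcna6, Kcnj2, Kcnq3 and Kcnj13. Kcnk13 (chr12:99964499-100062682, plus strand) was at 28.0, 26.9 and 24.9 CPM in the mock and 11.5, 12.4 and 10.9 CPM in morphine libraries. All morphine values were below all mock values, and the change was 2.26-fold downward (-1.17 ± 0.10, adjusted p = 9.56e-09). Beside it, 11 microglia markers gave sums of 66.2 to 79.8 CPM without and 68.6 to 70.7 CPM with morphine, with 2 of 11 lower (Cx3cr1 and P2ry12) and none at 0. Kcnk6, a leak channel high in the microglia gate, was at 1.14 ± 0.67 and 1.08 ± 0.09 CPM (mean ± SD, n = 3 each). It had only 11 to 34 reads a library. The part of microglial RNA in the Kcnk13 change was not tested.

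Kcna6 was at 222, 223 and 269 CPM in the mock and 150, 152 and 149 CPM in morphine libraries (-0.64 ± 0.07, adjusted p = 2.18e-07). Its gene (chr6:126708329-126740674, minus strand) lies 61.9 kb from Kcna1 on the same strand, so 2 neighbouring genes of the Kcna group moved in opposite directions. Kcnj2 was at 45.6, 38.5 and 45.8 CPM against 30.2, 22.6 and 24.6 CPM (-0.73 ± 0.10, adjusted p = 1.55e-05). Kcnq3 was at 114, 111 and 118 CPM against 94.0, 91.4 and 90.3 CPM (-0.29 ± 0.06, adjusted p = 0.00114). Kcnj13, a rectifier of the choroid plexus and other epithelia, was at 3.94, 4.80 and 3.03 CPM against 1.37, 2.13 and 1.96 CPM (-1.07 ± 0.25, adjusted p = 0.00363). The choroid plexus gene Ttr was at 608, 586 and 661 CPM against 236, 681 and 370 CPM in the same libraries, and its part in the Kcnj13 change was not tested. Kcnj13 shares exon sequence with Gigyf2 on the other strand, and Kcnab1, Kcnk1 and Kcna6 each overlap an antisense transcript, so reads could be shared with them if counting ignored strand.

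**Figure D4:**
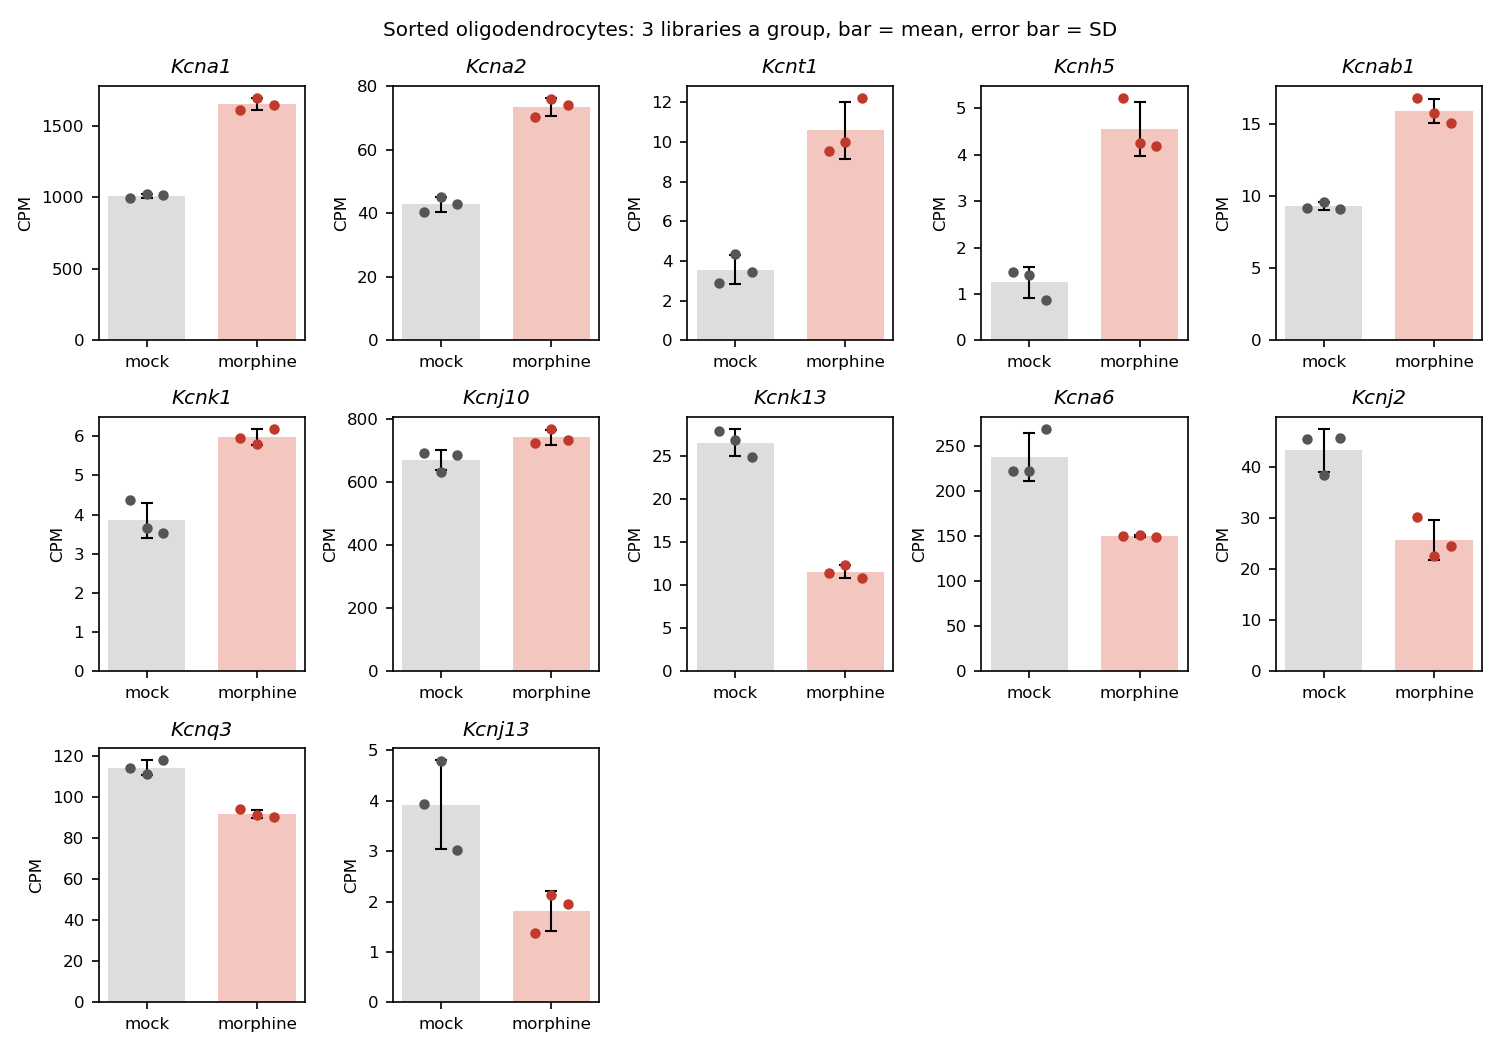
CPM of 12 of the 13 called channel genes in the 3 mock (grey) and 3 morphine (red) libraries of sorted oligodendrocytes, each panel with its own axis from 0, bars at the mean and error bars of 1 SD. The groups overlap in none of the panels, and the gap is narrowest relative to the level for Kcnj10 (669 ± 33 and 742 ± 23 CPM).

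The other 49 tested genes were not called, and 7 of them had an unadjusted p under 0.05. Kcnk5 came nearest, at 3.91 ± 0.81 CPM in the mock and 2.38 ± 0.32 CPM in morphine libraries (-0.67 ± 0.22, adjusted p = 0.0502). Kcnab3, at 1.03 ± 0.38 and 2.00 ± 0.38 CPM, had an adjusted p of 0.0604. The 20 genes that did not pass the filter had at most 60 reads over the 6 libraries. In the authors' deposited table, 13 of the 82 genes have an adjusted p under 0.05, the same 13 with the same directions, and that table gives Kcna1 a log2 fold change of 0.76. Of 20 tested partner genes, 2 rose and 2 fell. Among them Slc12a2 was at 838 ± 21 CPM in the mock and 984 ± 7 CPM in morphine libraries (0.26 ± 0.05), and Atp1b3, a pump subunit, changed by -0.18 ± 0.06.

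To show the sequence at the start of 2 called genes of oligodendrocytes that went opposite ways, the RefSeq promoter windows (250 bases before and 50 after the start, GRCm38.p6) of Kcnj10 (chr1:172340960-172341259, plus strand) and Kcnk13 (chr12:99964249-99964548, plus strand) are printed 5′ to 3′. Capitals mark matches to TGTTCT on either strand, the half-site bound by glucocorticoid receptors.
Kcnj10: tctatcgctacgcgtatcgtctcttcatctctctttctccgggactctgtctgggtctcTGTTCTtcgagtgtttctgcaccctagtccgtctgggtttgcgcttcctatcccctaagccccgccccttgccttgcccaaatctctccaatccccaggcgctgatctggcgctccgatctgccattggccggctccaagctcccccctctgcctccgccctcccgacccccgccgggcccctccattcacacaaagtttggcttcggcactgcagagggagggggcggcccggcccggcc
Kcnk13: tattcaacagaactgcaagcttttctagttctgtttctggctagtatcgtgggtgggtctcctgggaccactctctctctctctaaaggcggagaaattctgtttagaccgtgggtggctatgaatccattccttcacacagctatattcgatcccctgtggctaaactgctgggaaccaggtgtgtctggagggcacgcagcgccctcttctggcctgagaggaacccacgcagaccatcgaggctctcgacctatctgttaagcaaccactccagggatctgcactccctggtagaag
Kcnj10 held 1 match, which starts 191 bases before the gene start, and Kcnk13 held none. Of 32851 windows of this length in the table, 19.0% held the half-site, and of the 9 called genes with a window, Kcnj10 and Kcnab1 did. Of all 82 genes, 59 had a window and 10 of those held a match. A match is a description of letters in this window.

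In the accumbens, no channel gene was called between morphine and mock over all barcodes. Of 71 tested, none had an unadjusted p under 0.05 in edgeR, and DESeq2 called none; over all 15181 genes edgeR called 0%. The median over the channel genes was -0.01 and over all genes 0.00. The smallest p belonged to Kcnk2, at 0.37 ± 0.20 (adjusted p = 1.000). The same comparison was made within 12 gates that had enough barcodes. Over these gates 188 tests on 56 channel genes gave no call in edgeR and none in DESeq2, and 7 had an unadjusted p under 0.05. The background was 8 of 8669 genes (0.0923%) in the oligodendrocyte gate, 3 of 7430 (0.0404%) in the astrocyte gate and 0% in the other 10 gates.

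The oligodendrocyte gate allows the sorted-cell changes to be set beside the accumbens pools. Of the 13 genes called in sorted cells, 8 could be tested there, 5 with the same sign. That count is too small to tell from an even split, and the share over all genes was not counted. Kcnk13 was at 50.8, 66.5, 45.6 and 42.9 CPM in the mock and 20.9, 40.4, 16.9 and 34.6 CPM in the morphine pools. All morphine pools were below all mock pools, with a log2 fold change of -0.78 ± 0.25, an unadjusted p of 0.00686 and an adjusted p of 0.661. In that gate the 11 microglia markers gave sums of 69.0 to 183 CPM without and 69.3 to 151 CPM with morphine, and none was at 0. Their part in the Kcnk13 values was not tested.

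Kcna1 was at 381, 510, 632 and 772 CPM in the mock and 481, 647, 785 and 855 CPM in morphine pools of that gate (0.32 ± 0.22, adjusted p = 1.000). In each group the 2 older pools lay above the 2 younger ones; this order was seen in the values and was not tested. The groups overlapped for Kcna6, at 65.4 ± 8.9 and 53.9 ± 10.1 CPM (SD, n = 4 each), with a change of -0.21 ± 0.19. Kcnk1 changed by 0.54 ± 0.37, Kcnj10 by 0.05 ± 0.23, Kcnq3 by 0.05 ± 0.24, Kcnt1 by -0.15 ± 0.37 and Kcnab1 by -0.17 ± 0.23, each with an adjusted p of 1.000. Kcna2, Kcnh5, Kcnj2 and Kcnj13 had too few UMIs in the gate to be tested. Whether the changes differ between sorted cells and the gate was not tested.

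**Figure D5:**
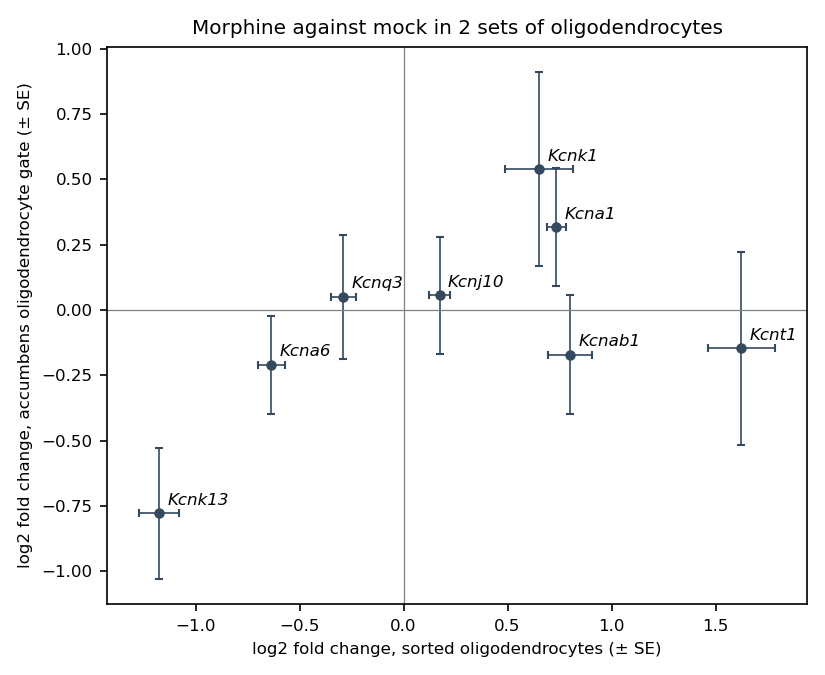
Log2 fold change of morphine against mock, with SE bars, in sorted oligodendrocytes (horizontal axis) and in the accumbens oligodendrocyte gate (vertical axis) for the 8 genes tested in both. Kcnk13 lies lowest on both axes (-1.17 and -0.78), and the gate's bars cross 0 for Kcnj10, Kcnq3, Kcnt1 and Kcnab1.

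Elsewhere in the accumbens, Kcnc2 in the interneuron gate was at -0.80 ± 0.37 (adjusted p = 0.999), with overlapping groups. Among astrocytes Kcnn2 was at 0.38 ± 0.18 and Kcnj10 at -0.52 ± 0.25, both with an adjusted p of 0.999. In the D2 gate Kcnk2 was at 0.49 ± 0.20 (adjusted p = 1.000), with morphine replicates 1 and 3 at 560 and 576 CPM and all other pools at 295 to 373 CPM.

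The G protein-gated rectifiers, opened downstream of opioid receptors, gave no call. In the D1 gate Kcnj3 changed by 0.20 ± 0.25 and Kcnj9 by 0.24 ± 0.27, and in the D2 gate by 0.33 ± 0.32 and 0.04 ± 0.29, each with an adjusted p of 1.000. In interneurons Kcnj3 was at -0.41 ± 0.30 and Kcnj9 at -0.71 ± 0.36 (adjusted p = 0.999 for both). Kcnj6 and Kcnj5 were tested over all barcodes only, at 0.11 ± 0.62 and 0.01 ± 0.54 (adjusted p = 1.000 for both). No partner gene was called in any of these accumbens comparisons.

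Kcnj13 and Kcne2, channel genes of the choroid plexus, were uneven over pools. Morphine replicate 1 held 399 of the Kcnj13 UMIs, 90.1% of all, and 143 of the Kcne2 UMIs, 88.3%. It stood at 58.2 CPM for Kcnj13 against 0.0668 to 2.71 CPM in the other 7 pools. The same pool held Ttr at 12803 CPM and Folr1 at 88.7 CPM, against at most 897 and 3.77 CPM elsewhere. Within gates, 202 Kcnj13 UMIs fell in the dividing and 35 in the ependymal gate of that pool, where Ttr was at 47188 and 97368 CPM. Without a filter on low counts these genes were called in those gates, as was Kcnk1 in the dividing gate, 4 calls in all. Kcnk1 was at 478 CPM in that pool's dividing gate and at 5.16 to 73.4 CPM in the other 7. The part of choroid plexus tissue in these calls was not tested.

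Age was compared over all barcodes, 4 older against 4 younger pools with both treatments in each. No channel gene was called, and 0% of all 15181 genes was. Of 71 channel genes, 16 (22.5%) had an unadjusted p under 0.05, beside 10.4% of all genes, and DESeq2 called none of the channel genes. Kcnj16 was at 23.7, 20.8, 16.9 and 19.1 CPM in the younger and 14.0, 11.1, 15.1 and 8.92 CPM in the older pools (-0.67 ± 0.18, adjusted p = 0.474). Kcnj4 was at 77.2, 95.6, 84.9 and 76.8 CPM against 60.9, 49.5, 68.7 and 42.5 CPM (-0.55 ± 0.15, adjusted p = 0.474). Neither gene's groups overlapped, but both were picked by smallest p, and the share of all genes without overlap was not counted. Kcnh2 was at -0.70 ± 0.22 (adjusted p = 0.474). The 16 genes did not share 1 direction. Kcnk4 (1.71), Kcnmb2 (1.14), Kcnj3 (0.84), Kcnv1 (0.68) and others were higher in the older pools, with adjusted p of 0.474 or 0.477. The excitatory neuron gate held 12, 23, 7 and 39 barcodes in the younger and 69, 208, 1 and 173 in the older pools. Those ranges overlap, since the lowest pool was an older one, and the part of these barcodes was not tested. With both replicate 1 pools left out, Kcnj16 was at -0.65 ± 0.23 and Kcnj4 at -0.58 ± 0.20. Within the summed D1 and D2 gates Kcnj4 was at -0.65 ± 0.23 (adjusted p = 0.332).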

How the data were processed

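For the accumbens the authors deposited raw UMI counts per gene and barcode, made with the DigitalExpression program, per the file headers. For sorted cells the authors deposited raw read counts per symbol. A further table of theirs holds log2 fold changes, with p-values, for the same comparison, per the file headers. The submitters' processing notes name Trimmomatic 0.36, STAR 2.4.2a, HTSeq, DESeq2, DESeq and build mm10, without roles. Whether counting used strand is not given in the sources used here. Rows of no gene, 69.5% to 74.3% of the reads, were left out.

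Older symbols were renamed, since the replicate 1 pools use another gene list, and the 20856 symbols of both lists were kept. Barcodes with under 300 genes or over 20% mitochondrial UMIs were dropped. Barcodes scoring for several cell types could enter only the dividing progenitor and perivascular macrophage gates, which set no such limit. No doublet caller was run. Medium spiny neurons entered the D1 or D2 gate with at least 2 markers of it. UMIs were summed per pool and gate; gates needed 10 barcodes in 3 pools of each group. Tests were edgeR 4.0.16 quasi-likelihood fits (R 4.3.3, TMM, filterByExpr), checked on simulated data, with DESeq2 1.42.0 as an alternative. The self-test used the real means. Fits between gates held the pool as a block. Named were all called genes, topped up by the smallest p, and for gates up to 10 a side. Gene coordinates and exon lengths are from GENCODE (GRCm38). The genes, partner list, markers and tests were chosen with earlier results of these data known. Results for some genes are not reported here, and they remain in the counts of genes tested and called.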

Additional observations from a re-analysis of the deposited data

Results flagged for a closer look

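In each group of 4 accumbens pools, each described channel gene's CPM over all barcodes was checked for a pool whose gap to the nearest other, as a share of the group's range, exceeded Dixon's critical value for 4 samples. Of 160 groups, 11 were flagged, and chance flags about 1 in 20. Of these, 6 were in morphine replicate 1. There Kcna2 was at 65.2 CPM (next 6.96), Kcnn3 at 15.6 (next 3.77), Kcnj13 at 58.2 (next 2.71), Kcne2 at 20.9 (next 1.06) and Kcnk1 at 171 (next 143), while Kcna3 was lowest at 0.146 (next 1.05). In mock replicate 1 Kcna2 was at 44.1 CPM (next 8.29) and Kcnn3 at 12.8 (next 2.72). In mock replicate 3 Kcnn1 was at 6.61 CPM (next 4.39) and Kcng4 at 0.785 (next 0.203). In morphine replicate 4 Kcnk4 was at 3.38 CPM (next 0.751).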

How the results depend on the processing

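The count of channel genes called in sorted oligodendrocytes was 13, and 12 to 16 without 1 library. It was 0 over all barcodes for morphine and for age, and 0 without any 1 pool; the gates' count of 0 was 0 as well without any 1 pool, and 4 with no filter on low counts. Between the D1 and D2 gates it was 10, but 6 with DESeq2, 4 without the pool as replicate block, 5 under the tighter gate and 6 to 15 without 1 pool. For spiny neurons against interneurons it was 41, but 26 under the tighter gate, where fewer genes are tested, and 40 to 44 without 1 pool. With DESeq2 and with no filter, which test more genes, it was 26 and 28 instead of 13 for oligodendrocytes against precursors (11 to 14 without 1 pool), 24 and 27 instead of 15 for astrocytes against oligodendrocytes (14 to 16), and 8 and 10 instead of 2 for mural against endothelial cells (2 to 3), where the tighter gate gave 0 because no channel gene passed the filter. No named gene reversed its sign under any alternative run.

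Same-numbered mock and morphine pools share an age range and a number of barcodes, and the replicate 1 pools a gene list, but the labels name no shared litter, batch or day. Same-numbered deviations of the accumbens pools correlated at 0.44, -0.09, -0.05 and 0.69, so not every pair deviated together and the numbers were not taken as pairs. With the number as a replicate block the count of called channel genes was 0 over all barcodes and 0 in the gates. For sorted cells the planned block was not run, because the table's column names tie each library to its treatment but not to 1 numbered sample. The tighter gate, the fits without both replicate 1 pools and the age fits within spiny gates were chosen after seeing the data. The planned stricter gate, with no marker of another type, left enough barcodes in oligodendrocytes only, where 2 channel genes were tested and 0 called. Low UMI counts limited the smaller gates: 2 channel genes could be tested in endothelial cells.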
